A study of Mus musculus with 2 samples.

Results

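Cadherins and the regulators of the epithelial-mesenchymal transition (EMT) were followed as a panel of 10 genes, taken by symbol from the 32285 genes of the deposited matrix. The panel holds the cadherins Cdh1 and Cdh2, the intermediate filament gene Vim, and the transcription factor genes Snai1, Snai2, Zeb1, Zeb2, Twist1, Twist2 and Prrx1. All 10 were found. The data are 2 droplet single-cell RNA libraries, 1 per group. Both came from tumours of 4T1 cells, a mammary carcinoma line of mouse origin that models triple-negative breast cancer, grown in the mammary fat pads of female mice (strain written BLB/c in the labels) and taken at 150 mm3. In the control group the 4T1 cells carried a control sgRNA and are labelled WT. In the other group they carried an sgRNA labelled K2 (genotype K2-KO), read here as the Kindlin-2 of the series title, the integrin-binding adaptor encoded by Fermt2. Live cells had been sorted by the presence or absence of mCherry. Which fraction was loaded, how many tumours were pooled and whether the knockout cells were a clone are not given in the sources used here.

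Cdh1 encodes E-cadherin, the homophilic adhesion receptor of epithelial adherens junctions, and Cdh2 encodes N-cadherin, its counterpart in many mesenchymal and neural cells. In EMT, zinc finger factors of the Snail and Zeb families and basic helix-loop-helix factors of the Twist family repress epithelial genes such as Cdh1, while vimentin and other mesenchymal genes come up. Many carcinomas show a mixed state in which E-cadherin and mesenchymal genes occur together, and 4T1 is known as a metastatic line that still makes E-cadherin.

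Snail and Zeb proteins bind the E-box CAGGTG, which reads CACCTG on the opposite strand. The 250 bases before the transcription start were searched for both spellings in RefSeq's promoter table (GRCm38.p6), which held entries for 6 of the 10 genes (Vim, Snai1, Zeb2, Twist1, Twist2 and Prrx1). One of these 6, Snai1, held the motif once, starting at -126 from the start. Across 27025 genes, 17.1% of windows of that length held it. The windows of Snai1 and Twist1, the more abundant factor genes with lower levels in the knockout tumour cells, are shown 5′ to 3′ on the plus strand with the E-box in capitals (Snai1 at chr2:167537945-167538194 and Twist1 at chr12:33957421-33957670).
Snai1: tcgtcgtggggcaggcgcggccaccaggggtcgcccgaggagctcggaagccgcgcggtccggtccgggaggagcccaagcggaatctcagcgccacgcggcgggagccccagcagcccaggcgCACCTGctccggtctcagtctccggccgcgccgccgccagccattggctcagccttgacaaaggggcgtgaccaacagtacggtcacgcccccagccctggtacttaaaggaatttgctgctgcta
Twist1: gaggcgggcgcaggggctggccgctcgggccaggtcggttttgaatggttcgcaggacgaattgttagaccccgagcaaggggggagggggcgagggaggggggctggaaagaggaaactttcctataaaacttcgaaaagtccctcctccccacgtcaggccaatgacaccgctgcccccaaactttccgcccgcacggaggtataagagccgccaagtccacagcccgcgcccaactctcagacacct
A match of letters is a description of the window, not a measured binding site.

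Of 8038 control and 7250 knockout barcodes, 7536 and 6744 cells were analysed after filtering. Tumour cells were cells with at least 5 UMIs of Epcam, Krt8 and Krt18 together per 10000 UMIs (CP10K) and no UMI of the leukocyte gene Ptprc. A UMI is 1 counted RNA molecule. This gave 3824 control and 2428 knockout tumour cells with medians of 34992 and 38669 UMIs. Col1a1 cells had Col1a1 at 5 CP10K or more, no Ptprc UMI and fewer than 5 CP10K of the epithelial genes, and numbered 102 and 95. The tumour gate was not pure. Clusters marked by normal luminal or basal mammary gland genes (Wfdc18, Prlr and Ltf, or Krt5 and Krt17) made up 51 of the control and 107 of the knockout gate cells, and another 70 and 71 cells lay in other or unnamed clusters. All 6 fibroblast markers were detected in the Col1a1 cells, with summed levels of 27523 and 29533 CPM (UMIs of a gene scaled to a class total of 1000000). Fermt2, the targeted gene, stood at 41.9 CPM in control and 17.3 CPM in knockout tumour cells, and at 40.9 and 14.5 CPM with the mammary gland clusters left out. The libraries shared 13 barcode sequences.

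With 1 library per group there are no replicates and no test. Each difference below is between these 2 libraries and each interval is an exact 95% interval for counting error only, so differences between tumours are not covered. Fewer cells of a type and less RNA per cell cannot be told apart in a summed level across a mixed gate, which is why values without the mammary gland clusters stand beside the main ones.

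**Figure D1:**
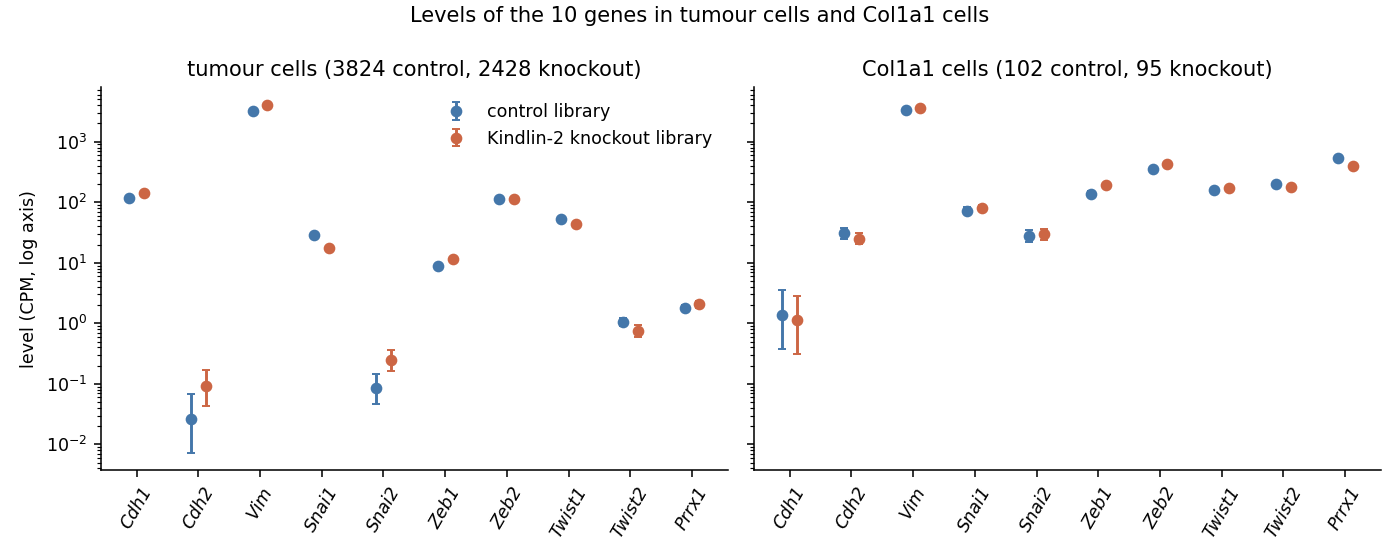
Level of each of the 10 genes in CPM on a log axis in tumour cells (left) and Col1a1 cells (right). Points are the control and Kindlin-2 knockout libraries and bars are exact 95% Poisson intervals. In tumour cells Cdh1, Vim and Zeb2 lie above 100 CPM and Cdh2 and Snai2 below 1 CPM in both libraries, while in Col1a1 cells Cdh1 lies near 1 CPM.

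Tumour cells of both libraries held Cdh1 RNA, and almost none held Cdh2 RNA. Cdh1 stood at 118 CPM (116 to 120) in the control library and 139 CPM (137 to 142) in the knockout library. Its log2 ratio of knockout over control was 0.24 (0.21 to 0.27), and 0.21 without the mammary gland clusters. Cdh1 was thus slightly higher in the knockout tumour cells, by 1.18-fold. UMIs were counted per gene, and the gene spans chr8:106603351-106670246 on the plus strand (mm10, GENCODE M21).

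Cdh2 gave 4 UMIs in all control tumour cells and 10 in all knockout tumour cells, of which 6 were in 1 cell. Of the 10 knockout UMIs, 9 were in cells of the mammary gland clusters. In the tumour clusters past the gate, 2 Cdh2 UMIs were found in 3703 control cells and 1 in 2250 knockout cells. N-cadherin RNA was therefore at the limit of detection in the tumour cells of both libraries, and its log2 ratio of 1.77 (-0.02 to 3.90) rests on the mammary gland cells. Without them it was -1.52 (-7.14 to 1.82).

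Vim, which spans chr2:13573927-13582826, was found in nearly every tumour cell. Its level was 3222 CPM in the control and 4071 CPM in the knockout library, a log2 ratio of 0.34 (0.33 to 0.34), and 3248 and 4185 CPM without the mammary gland clusters (0.37). A Vim UMI was present in 98.1% and 96.7% of tumour-gate cells. Among the mammary gland cells in the gate the share was 58.8% and 56.1%, and the Vim level there was 417 and 527 CPM. The higher Vim level in the knockout library was thus as large without the gland cells.

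Snai1, which encodes Snail and spans chr2:167538195-167542814, had the largest log2 ratio in size among the factor genes above 1 CPM in both libraries. The control library had 29.3 CPM (28.4 to 30.2), while the knockout library had 17.5 CPM (16.7 to 18.3). The log2 ratio was -0.74 (-0.82 to -0.67), a 1.67-fold lower level. Without the mammary gland clusters the levels were 29.5 and 17.9 CPM (-0.72). With each cell reduced at random to 5000 UMIs, a Snai1 UMI was found in 13.9% (12.8 to 15.05) of control and 7.22% (6.19 to 8.36) of knockout tumour cells. Without this thinning the shares were 52.9% and 42.8%. In macrophage-like cells, at median depths of 19527 and 22652 UMIs, the thinned share was 0.0816% and 0.438%, so free RNA in the droplets gave few Snai1 UMIs there. Both the summed level and the share of cells were lower in the knockout tumour cells.

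Genes that respond to stress and dissociation were mostly lower as well. A list of 14 such genes, chosen after values had been seen, had a median log2 ratio of -0.43 in tumour cells without the mammary gland clusters, and 5 of the 14 were at least 1.5-fold lower. Of all genes in the same cells 8.39% were that much lower, and their median was 0.09. Among them Fos stood at 1051 and 594 CPM. Their part in the Snai1 difference was not tested.

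Snai2 (chr16:14705852-14709385), which encodes Slug, a factor of basal mammary cells, was nearly absent from the tumour cells. The gate held 13 control and 27 knockout UMIs, a log2 ratio of 1.51 (0.50 to 2.58), of which 10 and 24 were in the mammary gland clusters. In the tumour clusters past the gate the counts were 2 UMIs and 0 UMIs. The 0 in 2250 knockout cells allows a level of up to 0.0284 CPM at 3 counts over the class. As with Cdh2, the ratio rests on the gland cells in the gate. Within these 51 control and 107 knockout cells Snai2 stood at 7.51 and 7.04 CPM, so its level in them was not higher in the knockout.

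Zeb1 and Zeb2 encode related zinc finger repressors of Cdh1, and they behaved differently. Zeb1 was at 8.70 CPM (8.23 to 9.19) in control tumour cells and 11.6 CPM (11.02 to 12.3) in knockout ones, a log2 ratio of 0.42 (0.31 to 0.53). Zeb2 was at 113 and 114 CPM, a log2 ratio of 0.01 (-0.03 to 0.04). The Zeb1 difference was not smaller without the mammary gland clusters (0.45, 0.34 to 0.57), and the Zeb2 ratio there was 0.03. Zeb1 was thus modestly higher in the knockout library and the Zeb2 levels lay within counting error of each other. The Zeb1 log2 ratio was 0.20 both with a stricter epithelial minimum of 20 CP10K and without the cells that held a UMI of the fibroblast genes Dcn, Lum or Pdgfra. Zeb2 (chr2:44983632-45117395, minus strand) shares its locus with the antisense gene Zeb2os, and whether counting used strand is not given in the sources used here.

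A Zeb2 UMI was seen in 79.5% of control and 84.8% of knockout cells of the tumour clusters, against 9.80% and 13.1% of the mammary gland cells in the gate, which were shallower. For Zeb1 the shares were 18.7% and 25.4% against 5.88% and 2.80%. Luminal mammary gland-like cells had medians of 22194 and 25963 UMIs and the tumour clusters 35398 and 39830.

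Twist1 (chr12:33957671-33959829), a basic helix-loop-helix factor of mesoderm, was lower in the knockout tumour cells. The control library had 53.1 CPM (52.0 to 54.3) and the knockout library 43.5 CPM (42.3 to 44.8), a log2 ratio of -0.29 (-0.34 to -0.24) and a fold of 1.22. Thinned to 5000 UMIs, 21.9% and 18.5% of tumour cells held a Twist1 UMI, against 0.571% and 0.146% of macrophage-like cells.

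Twist2 (chr1:91801461-91848028) and Prrx1 (chr1:163245119-163313710, minus strand), factors of mesenchyme, gave few UMIs in tumour cells. Twist2 had 159 and 82 UMIs (1.06 and 0.747 CPM, log2 ratio -0.50, -0.91 to -0.11). One cell held 24.5% of the control and 46.3% of the knockout Twist2 UMIs, and 63.5% and 65.9% lay in cells that also had a UMI of Dcn, Lum or Pdgfra. Such cells held 38.5% and 33.6% of all tumour-gate UMIs. Without the top cell of each library the Twist2 log2 ratio was -0.996, and with an epithelial minimum of 10 CP10K it was -0.034. Prrx1 had 270 and 226 UMIs (1.80 and 2.06 CPM, log2 ratio 0.19, -0.07 to 0.45), and 42.2% and 45.1% of them lay in those cells. With cells weighted equally the Prrx1 log2 ratio was 0.82, past 1.5-fold. The part of fibroblast RNA in these low values was not tested.

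Taking a fold of 1.5 as the mark, 1 of the 9 genes of the panel with at least 20 UMIs was higher (Snai2) and 1 was lower (Snai1) in the knockout tumour cells. Across the 17435 genes with that many UMIs, 18.8% were past that mark on the higher side and 6.91% on the lower side, and the median log2 ratio was 0.12. Cdh2, with 14 UMIs in all, was past the mark too but under the minimum. Without the mammary gland clusters, none of the 8 genes of the panel with at least 20 UMIs was past 1.5-fold higher and 1, Snai1, was lower. The shares of all 16889 genes there were 15.5% and 8.39%.

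The Col1a1 cells are stromal cells, and 174 of the 197 lay in the fibroblast-like cluster. Cdh1 gave 4 UMIs there in each library. Cdh2 stood at 30.6 CPM (24.6 to 37.6) and 24.97 CPM (20.1 to 30.7) in the control and knockout libraries, and Snai2 at 27.8 and 29.5 CPM. Twist2 stood at 198 and 175 CPM, with 17.9% and 24.5% of its UMIs in 1 cell, and Prrx1 at 532 and 403 CPM. All of these were present in both libraries, and Cdh2, Snai2, Twist2 and Prrx1 were far above their tumour-cell levels, while Vim was at a similar level in both kinds of cell.

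The sgRNAs were carried by the tumour line, and the Col1a1 cells are read here as stroma. For them "knockout" therefore names the library, and their own genotype was not tested. Between libraries, Prrx1 was lower in the Col1a1 cells of the knockout library (log2 ratio -0.40, -0.51 to -0.30). Zeb1 was higher, at 138 CPM in the control and 194 CPM in the knockout (0.49, 0.31 to 0.67), as was Zeb2, at 356 and 425 CPM (0.26, 0.14 to 0.37). The intervals for Snai1 (72.9 and 81.1 CPM), Twist1 (157 and 169 CPM), Snai2 and Cdh2 included 0, and Vim stood at 3328 and 3667 CPM. Of the 9 genes with at least 20 UMIs, 0 were past 1.5-fold in either direction, where 12.6% of 11328 genes were higher and 6.7% lower. The Zeb1 log2 ratio was 0.62 with a Col1a1 minimum of 20 CP10K and 0.60 over the fibroblast-like cluster, both past 1.5-fold.

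**Figure D2:**
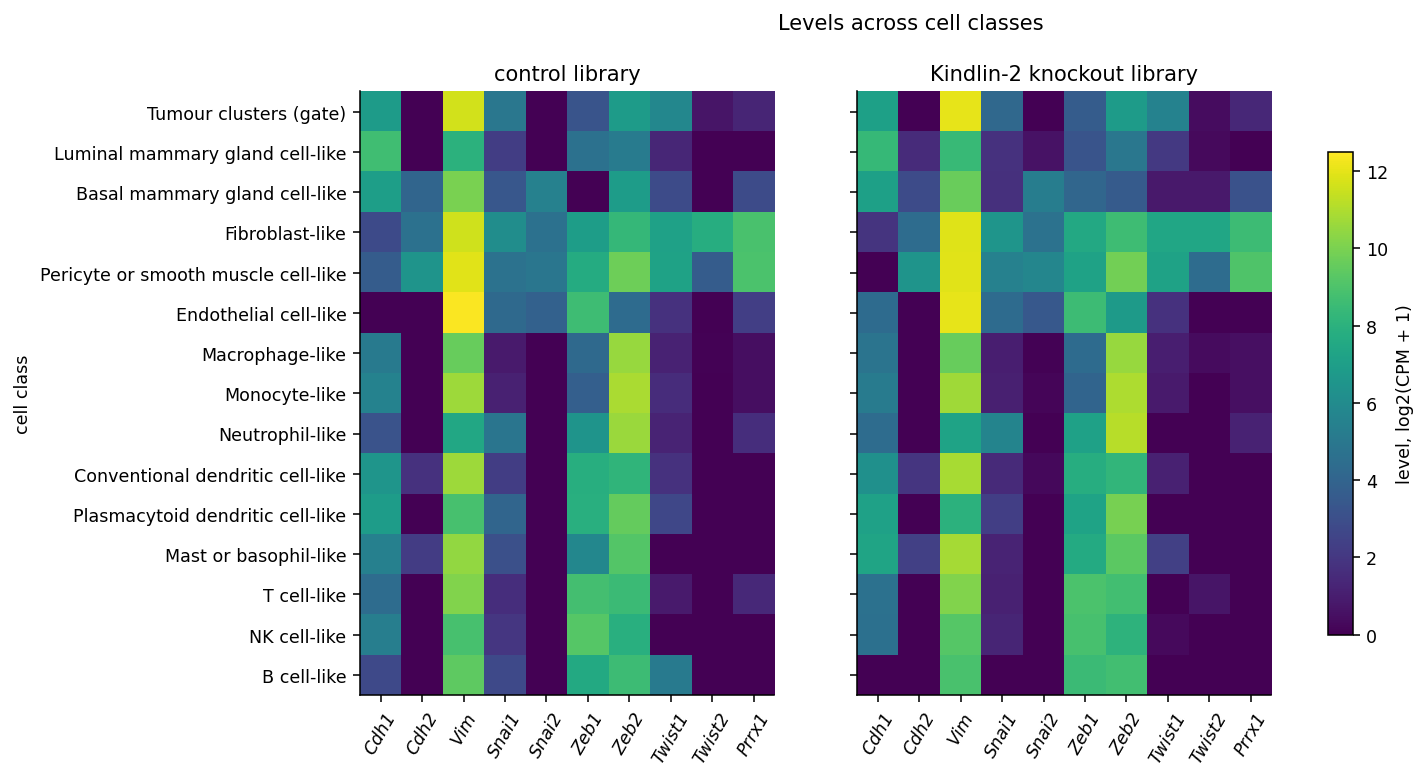
Level of each of the 10 genes, as log2(CPM + 1) by colour, in 15 cell classes of the control (left) and Kindlin-2 knockout (right) libraries. Twist2 is bright in fibroblast-like cells, Cdh2 in pericyte-like and fibroblast-like cells, and Zeb2 in macrophage-like, monocyte-like and neutrophil-like cells, while Vim is high in most classes.

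Across 15 cell classes the genes separated into patterns that recurred in both libraries. Cells were clustered without the 10 genes and the listed genes among the variable genes, although Cdh1 was 1 of 8 markers used to name the tumour clusters. Another 3 clusters closest to T cells and 1 closest to macrophages stayed unnamed by the marker and depth rules, so "T cell-like" means the Cd8 cluster alone. Cdh1 was highest in luminal mammary gland-like cells, at 412 CPM in the control and 335 CPM in the knockout. Basal mammary gland-like cells (128 and 137 CPM) came next in the control, from 41 UMIs in 15 cells (92.2 to 174 CPM). Plasmacytoid dendritic cell-like cells (120 and 141 CPM) and the tumour clusters (116 and 134 CPM) lay close to them in both libraries. In the knockout, mast or basophil-like cells lay above these classes. Conventional dendritic cell-like cells followed at 89.6 and 75.4 CPM. Mast or basophil-like cells differed between libraries, with 12 UMIs (43.2 CPM) in the control and 112 UMIs (154 CPM) in the knockout, where free tumour RNA, estimated from Epcam, Krt8 and Krt18, would give 15.8 and 21.6 CPM.

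Cdh1 was also found in macrophage-like cells (33.4 and 27.3 CPM), monocyte-like cells (45.4 and 35.9 CPM) and NK cell-like cells (40.2 and 23.8 CPM). E-cadherin is known from dendritic cells of the skin. From the Epcam, Krt8 and Krt18 UMIs in each class, tumour RNA at the tumour cells' ratio would give 8.12 and 2.16 CPM of Cdh1 in the conventional dendritic cell-like cells and 5.16 and 1.44 CPM in the plasmacytoid ones. For macrophage-like cells the same calculation gave 1.96 and 2.25 CPM. The measured Cdh1 levels were above these in both libraries. In the fibroblast-like cluster the control had 6.03 CPM against a calculated 3.96 CPM. The knockout had 2.68 CPM (1.34 to 4.79), below the calculated 8.67 CPM, so the calculation gave more Cdh1 there than was counted.

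Cdh2 was highest in pericyte or smooth muscle cell-like cells, at 88.3 and 88.6 CPM, from 22 and 10 cells. The fibroblast-like cluster held 24.4 and 20.7 CPM. Snai2 stood at 29.4 and 52.4 CPM in the pericyte or smooth muscle cell-like cells, 43.9 and 38.5 CPM in the basal mammary gland-like cells and 24.7 and 25.3 CPM in the fibroblast-like cluster. Twist2 set the fibroblast-like cells (220 and 169 CPM) apart from the pericyte or smooth muscle cell-like cells (11.3 and 20.1 CPM), while Prrx1 was high in both (486 and 376 CPM, and 502 and 540 CPM). In the fibroblast-like cluster 1 cell held 14.1% of the control and 22.0% of the knockout Twist2 UMIs.

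Snai1 was not confined to stroma and tumour. The fibroblast-like cluster was highest at 69.7 and 90.7 CPM. The tumour clusters (29.5 and 17.8 CPM), neutrophil-like cells (28.1 and 48.2 CPM), pericyte or smooth muscle cell-like cells (24.9 and 44.3 CPM) and endothelial cell-like cells (18.6 and 19.4 CPM) followed, in an order that differed between the libraries. Twist1 was highest in fibroblast-like (143 and 166 CPM) and pericyte or smooth muscle cell-like cells (147 and 145 CPM), with the tumour clusters next in both libraries (53.6 and 44.9 CPM).

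The Zeb pair was mainly leukocytic and stromal. Zeb2 reached 1941 and 1983 CPM in monocyte-like, 1551 and 2281 CPM in neutrophil-like and 1499 and 1505 CPM in macrophage-like cells. Zeb1 was highest in NK cell-like cells (588 and 466 CPM) and T cell-like cells (436 and 502 CPM), then endothelial cell-like cells (389 and 373 CPM), and stood at 8.47 and 11.3 CPM in the tumour clusters. Vim was highest in endothelial cell-like cells (5459 and 4205 CPM) and lowest in neutrophil-like cells (180 and 152 CPM). The knockout endothelial level, from 29 cells (4010 to 4408 CPM), was within counting error of the tumour clusters. The tumour clusters, at 3251 and 4184 CPM, lay near the fibroblast-like cluster at 3069 and 3829 CPM.

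The genes with the most similar profile over 30 profiles (15 classes in 2 libraries) were sought among 13116 genes by Pearson correlation, given as a description because the profiles share libraries and depth. Twist2 was closest to Srpx2 (0.97) and Prrx1 to Rian (0.97), a noncoding RNA gene. Snai2 was closest to Sulf1 (0.97), Twist1 to Zfp469 (0.92) and Cdh2 to Cacna1c (0.91), a calcium channel subunit gene. For Vim it was Praf2 (0.86), for Zeb2 Il17ra (0.84), for Zeb1 Cr1l (0.83), for Snai1 Kdelr3 (0.80) and for Cdh1 Phyh (0.77). Cdh1 thus had the least close match of the 10.

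**Figure D3:**
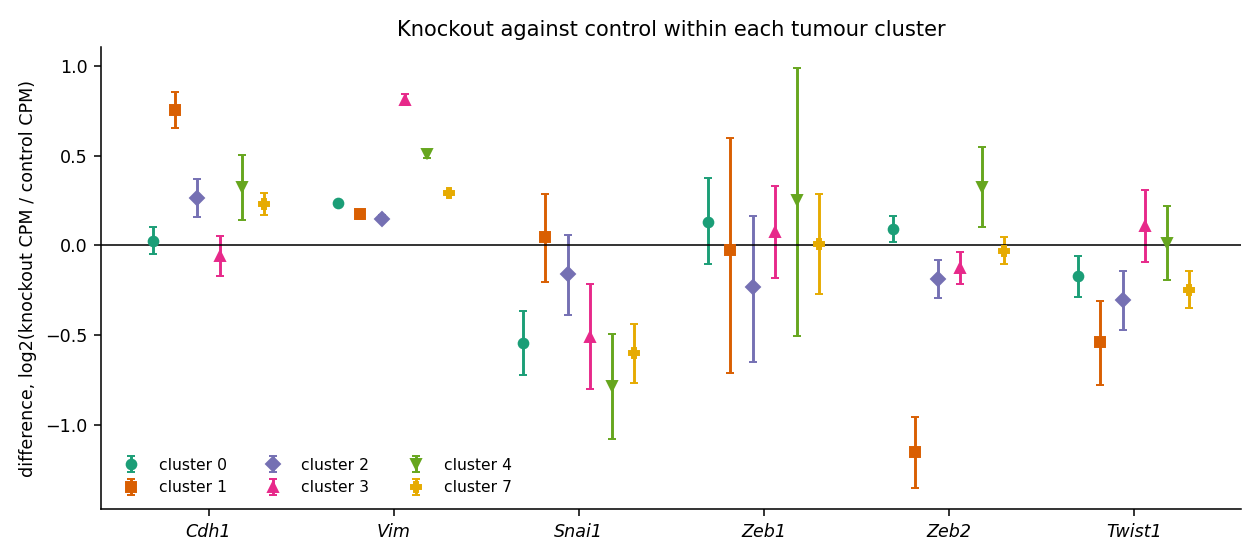
Difference between libraries, as the log2 ratio of knockout CPM over control CPM, for 6 genes in each of the 6 tumour clusters, with exact 95% conditional binomial intervals. Vim lies above 0 in every cluster, Snai1 below 0 in clusters 0, 3, 4 and 7, and Zeb2 ranges from -1.15 in cluster 1 to 0.33 in cluster 4.

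The tumour-gate cells fell mainly into 6 tumour clusters, which the libraries filled unequally. Cluster 0 is led by the interferon-response gene Ifit3, cluster 1 by Mt2 and Csf3, cluster 2 by Hbb-bs and Mgp, cluster 3 by Ghr, cluster 4 by Ighg2b, Msmp and H19, and cluster 7 by the mitosis gene Cenpf. Cluster 1 held 939 control but 87 knockout gate cells, and cluster 2 held 1074 and 185. Cluster 0 held 425 and 873. A comparison within each cluster therefore shows how far the library difference goes beyond this makeup, although cluster borders were set by these same cells.

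Vim was higher in the knockout in all 6 clusters, with log2 ratios from 0.15 in cluster 2 to 0.81 in cluster 3. In cluster 3 it stood at 1301 and 2283 CPM. That cluster had the highest level of the nuclear RNA Malat1, at 23003 and 19946 CPM, and the lowest Vim levels.

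Snai1 was lower in clusters 0, 3, 4 and 7, with log2 ratios of -0.54, -0.51, -0.78 and -0.60 and intervals below 0. In cluster 2 it stood at 30.2 and 27.0 CPM (-0.16, -0.39 to 0.06) and in cluster 1 at 35.3 and 36.5 CPM (0.04, -0.20 to 0.29). The stress genes had median log2 ratios of -0.15, -0.13, -0.23 and -0.39 in clusters 0, 3, 4 and 7, and of -0.20 and 0.03 in clusters 1 and 2. The lower Snai1 was thus seen in 4 of 6 clusters. Whether clusters differ in it was not tested.

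Cdh1 was most different in cluster 1, at 135 and 229 CPM (0.75, 0.65 to 0.85), where 87 knockout cells gave 966 UMIs. In clusters 0 and 3 its intervals included 0 (0.03 and -0.06), and in clusters 2, 4 and 7 the log2 ratios were 0.26, 0.32 and 0.23. Cluster 4 had the lowest Cdh1 level, at 55.1 and 68.9 CPM.

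The near-equal Zeb2 levels of the whole gate covered unequal clusters. Zeb2 stood at 116 and 52.3 CPM in cluster 1 (-1.15, -1.35 to -0.96) and at 35.2 and 44.1 CPM in cluster 4 (0.33, 0.10 to 0.55). In cluster 3 it had its highest level, at 223 and 205 CPM. Zeb1 showed the same order of clusters 3 and 4, with 24.8 and 26.1 CPM against 3.60 and 4.30 CPM, and its ratio had an interval including 0 in all 6 clusters. The higher Zeb1 of the knockout gate was thus not seen beyond counting error within any cluster. Twist1 was lower in clusters 0, 1, 2 and 7, from -0.17 to -0.54, with intervals including 0 in clusters 3 and 4.

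Co-detection of Cdh1 with mesenchymal genes was common in tumour cells past the gate. A cell counts as positive with 1 UMI, which depends on depth, so each cell was thinned to 5000 UMIs. This left 3638 control and 2286 knockout tumour cells and excluded 186 and 142 shallower ones. A Cdh1 UMI was found in 39.1% and 43.0% of them, against 10.6% and 9.05% of macrophage-like cells. The Col1a1 gate had set a limit on Epcam, Krt8 and Krt18. There a Cdh1 UMI was in 1 of 87 control-library and 0 of 82 knockout-library cells (a share of up to 3.66% at 3 counts). Both Cdh1 and Vim were found in 38.2% (36.6 to 39.8) of control and 40.7% (38.7 to 42.8) of knockout tumour cells, and in 80.7% and 83.6% without thinning. Cdh1 with at least 1 of the 7 transcription factor genes was found in 22.5% (21.2 to 23.9) and 23.3% (21.6 to 25.1), and in 77.5% and 80.6% without thinning. Among cells past the gate, those with both were therefore the rule once enough RNA was counted. Thinned, Vim was in 97.8% and 96.8% of tumour cells, so its share with Cdh1 nearly repeats the Cdh1 share. The gate set a minimum for Epcam, Krt8 and Krt18 together, so tumour cells below it were not counted. Without the mammary gland clusters, the mean of this sum rose with thinned Cdh1 UMIs (0, 1, 2 or more). It was 40.7, 44.0 and 46.9 CP10K in the control and 36.1, 37.6 and 43.5 CP10K in the knockout.

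**Figure D4:**
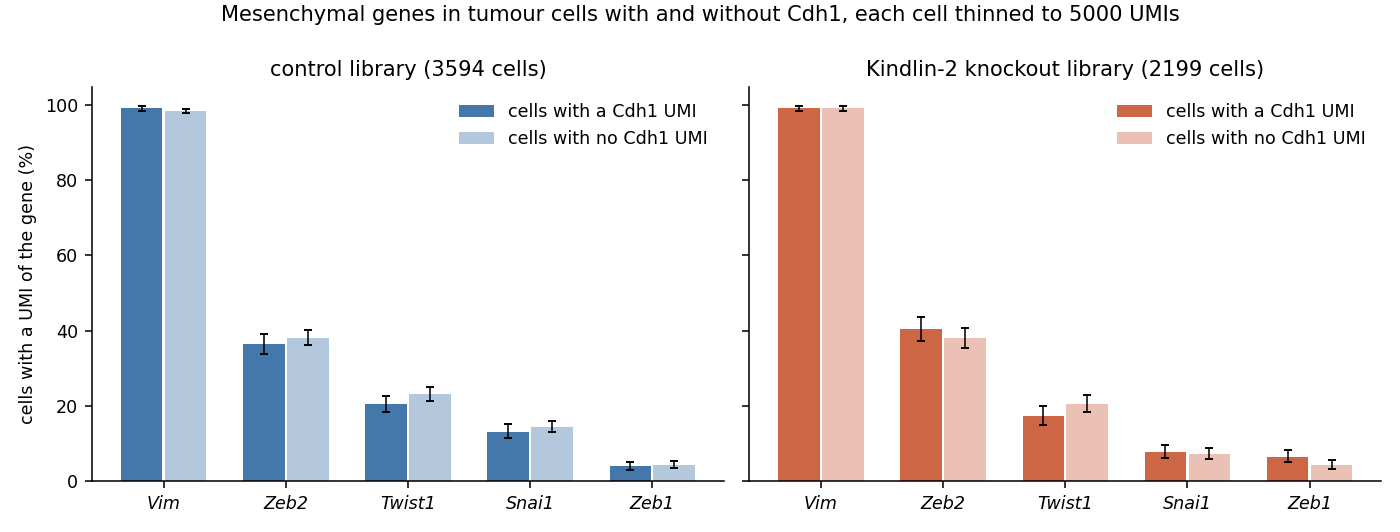
Percent of tumour cells with a UMI of each mesenchymal gene, among cells with and without a Cdh1 UMI, mammary gland clusters left out and each cell thinned to 5000 UMIs, for the control (left) and Kindlin-2 knockout (right) libraries. Bars start at 0 and error bars are exact 95% Clopper-Pearson intervals. Vim is in over 98% of both kinds of cell, and the paired bars of the transcription factor genes lie within a few percentage points of each other.

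Cells with and without a Cdh1 UMI after thinning held the mesenchymal genes at similar rates. Over all their UMIs, cells with none after thinning still had Cdh1 at 75.6 CPM in the control and 84.5 CPM in the knockout. They are therefore not cells that lack Cdh1 RNA, and the groups differ partly by which UMIs were drawn. With the mammary gland clusters left out, Vim was in 99.1% of Cdh1-positive and 98.3% of Cdh1-negative control cells, and in 99.1% of both in the knockout. Zeb2 was in 36.4% against 38.1% in the control and 40.4% against 38.0% in the knockout. Twist1 was in 20.5% against 23.1% and in 17.3% against 20.6%, so it was slightly less frequent beside Cdh1 in both libraries.

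Snai1 was in 13.2% of Cdh1-positive and 14.4% of Cdh1-negative control cells, and in 7.83% and 7.19% in the knockout. Zeb1 was in 4.02% and 4.36% in the control and in 6.53% and 4.45% in the knockout, the widest relative gap of the 5 genes. Over the whole gate and without thinning, the number of cells with both Cdh1 and a partner was compared with the product of the single shares within 10 depth bins. This ratio was 1.00 for Vim, 0.98 for Snai1, 1.02 for Zeb1, 1.00 for Zeb2 and 1.00 for Twist1 in the control, and 1.00, 0.99, 1.03, 1.00 and 1.00 in the knockout. Unthinned, Cdh1 and Vim were in most cells, which holds such a ratio near 1. Thinned to 5000 UMIs, the ratio for Twist1 was 0.92 in the control and 0.89 in the knockout, for Snai1 0.94 and 1.05, for Zeb1 0.95 and 1.21, and for Zeb2 0.97 and 1.02. Twist1 was thus below 1 in both libraries, and Snai1, Zeb1 and Zeb2 lay on different sides of 1. These ratios carry no test.

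Cells were also graded by their Cdh1 UMIs after thinning. Without the mammary gland clusters Vim stood at 3293, 3259 and 3042 CPM in control cells with 0, 1 and 2 or more Cdh1 UMIs, and at 4315, 4112 and 3857 CPM in knockout cells. Twist1 stood at 55.5, 52.7 and 47.5 CPM in the control and 46.2, 44.6 and 40.6 CPM in the knockout. Vim and Twist1 were thus lowest in the cells with most Cdh1 in both libraries. Snai1 stood at 30.6, 28.8 and 26.4 CPM in the control but at 17.8, 17.9 and 18.8 CPM in the knockout. Zeb1 stood at 8.76, 8.25 and 9.34 CPM in the control and at 10.9, 12.1 and 15.4 CPM in the knockout, where it was highest in the cells with most Cdh1. Zeb2 lay between 110 and 118 CPM in all 6 groups. The depth medians of the groups lay between 35486 and 40719 UMIs.

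Other genes of the same processes were read from 5 lists, as counts past 1.5-fold in the knockout tumour cells with and without the mammary gland clusters. Over all genes the shares were 18.8% higher and 6.91% lower in the whole gate, and 15.5% and 8.39% without the gland cells. Among epithelial junction genes, 5 of 27 were higher and 4 lower (median log2 ratio 0.14), and without the gland cells 3 of 26 higher and 6 lower (-0.12). Cldn7, a tight junction claudin, had the widest gap, at 49.6 CPM in the control and 1.93 CPM in the knockout without the gland cells (-4.69, -4.89 to -4.48). With them its log2 ratio was -2.27. Cldn3 stood at 164 and 78.7 CPM and Cgnl1, a junction-associated cingulin-like protein gene, at 163 and 91.7 CPM. Marveld3 (2.68 and 7.41 CPM) and the polarity gene Crb3 (0.619 and 1.43 CPM) were higher, whereas the higher Cldn1 of the whole gate came to 3 UMIs in each library without the gland cells. In both sets of cells the share of junction genes that was higher did not exceed that of all genes. The share that was lower, 4 of 27 and 6 of 26, was above the 6.91% and 8.39% of all genes.

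Among the partners and relatives of the cadherins, 2 of 16 were higher (Cdh3 and Cdh6) and 1 was lower (Cdh15), all below 1 CPM in both libraries, where all genes gave 18.8% higher and 6.91% lower. Without the gland cells 2 were higher and 2 lower (Cdh15 and the nectin gene Nectin1), where all genes gave 15.5% and 8.39%. Median ratio scaling of the whole gate also gave 2 and 2, where 2804 of 17435 genes were higher and 1468 lower. The catenins that link E-cadherin to actin were near equal, with Ctnna1 at 253 and 258 CPM and Ctnnd1, p120-catenin, at 150 and 141 CPM. Ctnnb1, beta-catenin, stood at 227 and 185 CPM (-0.30, -0.32 to -0.27). These 3 catenins were chosen after their values were seen.

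Epithelial regulators gave 5 of 17 higher and 1 lower with the gland cells, and 2 of 16 higher and 4 lower without them. Scaled by the median ratio over genes, the whole-gate split was 4 higher and 3 lower, where 2804 of 17435 genes were higher and 1468 lower. Elf5, a factor of luminal gland cells, had 101 and 309 UMIs in the whole gate but 2 and 3 without the gland clusters. The splicing regulator gene Esrp1, named after its values were seen, stood at 30.3 and 52.0 CPM without them (0.78, 0.72 to 0.84). Grhl1 had 16 and 25 UMIs there. Tfap2c, a trophoblast and breast factor and 1 of the 4 lower there, stood at 3.94 and 0.640 CPM (-2.62, -3.01 to -2.26). Of all genes, 18.8% were higher and 6.91% lower in the whole gate, and 15.5% and 8.39% without the gland cells.

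Among other transcription factors linked to EMT, 2 of 20 were higher and 6 lower, where all genes gave 18.8% higher and 6.91% lower. Without the gland cells 1 of 19 was higher and 5 were lower, where all genes gave 15.5% higher and 8.39% lower. Lef1, a Wnt pathway factor, stood at 8.59 CPM in the control and 1.23 CPM in the knockout without the gland cells (-2.80, -3.07 to -2.54). Foxc2 stood at 15.9 and 8.12 CPM (-0.97) and Foxq1 at 2.27 and 0.771 CPM (-1.56). Those forkhead factors and Lef1 were lower in the knockout, as Snai1 was. Tbx3, higher in the whole gate, had 7 and 8 UMIs without the gland cells, under the minimum. It is therefore not the 1 gene counted as higher there, which is not named here.

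Mesenchymal structural and matrix genes gave 12 of 36 higher and 7 lower (median log2 ratio -0.06), and 12 higher and 9 lower without the gland cells (-0.07). Scaled by the median ratio over genes, the splits were 9 higher and 11 lower, and 9 higher and 12 lower. Of all genes so scaled, 2804 of 17435 were higher and 1468 lower. Without the gland cells 2244 of 16889 were higher and 1672 lower. Among the higher ones without the gland cells were Acta2, smooth muscle actin, at 1.24 and 6.04 CPM (2.28, 2.04 to 2.52) and Tpm2, a tropomyosin, at 2.82 and 6.87 CPM. Lox, a collagen cross-linking enzyme gene, stood at 0.357 and 1.12 CPM. On the lower side, Col5a1 stood at 36.5 and 16.8 CPM, Col6a2 at 25.5 and 12.1 CPM, and the receptor gene Pdgfrb at 73 and 15 UMIs. All genes had a median of 0.12 in the gate, with 18.8% higher and 6.91% lower. Without the gland cells their median was 0.09, with 15.5% higher and 8.39% lower. The counts of these lists are descriptions of 2 libraries, and the lists were not tested.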

How the data were processed

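The deposited file holds UMI counts per gene and cell barcode from 10x single-cell 3′ v2 libraries. The submitters' processing notes name Cell Ranger 2.1.1 and mm10, while the file header names Cell Ranger 6.0.1. Barcode suffixes 1 and 2 were matched to the control and knockout libraries by the library number in the labels alone. The authors' cell calling was kept. No sample column was left unused.

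Kept barcodes had 500 UMIs and 200 genes or more and no more than 20% mitochondrial UMIs. Scrublet, run on each library, marked 211 and 218 doublets, which were removed. Library totals were 214163620 and 180774106 UMIs. Cells were clustered with scanpy 1.11.5 on 1966 variable genes (30 components, 15 neighbours, Leiden resolution 1.0), and the 27 clusters were named from fixed markers. UMIs were summed per library and class and scaled to CPM. Intervals are exact at 95% (Poisson, Clopper-Pearson, conditional binomial). The ratio calculation was tested on simulated counts. Software included Python 3.11.15, numpy 2.4.6 and scipy 1.17.1. Gene positions came from GENCODE M21, which held 99.8% of the identifiers, and sequences from RefSeq. Free RNA was not subtracted.

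The 10 genes and the gene lists were chosen with earlier results of these data known. Text names the 10 genes, Fermt2 and, from each list, up to 3 measured members highest and 3 lowest past 1.5-fold. Measured means at least 20 UMIs over both libraries. Further names are said to be chosen after values were seen. Alternatives were other gates, filters, scalings and thinning depths.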

Additional observations from a re-analysis of the deposited data

Results flagged for a closer look

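Zeb2 differed between tumour clusters in the direction of its library difference. The log2 ratio of knockout over control was -1.15 in cluster 1, where the knockout library had 87 cells and 221 Zeb2 UMIs, and 0.33 in cluster 4, where it had 223 cells and 267 UMIs. The intervals (-1.35 to -0.96 and 0.10 to 0.55) lie on opposite sides of 0 but cover counting error only, and the difference between the clusters was not tested. Malat1 in cluster 4 stood at 935 CPM in the control and 1358 CPM in the knockout, against 8356 and 7731 CPM in cluster 1, and its part in the result was not tested.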

How the results depend on the processing

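No paired analysis was possible because each group has 1 library. In tumour cells, 119 ratios of the 10 genes were recomputed under 12 alternatives. Of these, 92 stayed within the main interval, 25 moved out of it and 2 reversed, both for Cdh2, to -0.070 with cells weighted equally and to -1.52 without mammary gland clusters. The sign also changed for Zeb2. In Col1a1 cells 64 of 70 stayed and 6 moved out, and the sign changed in 6, for Cdh1, Snai1 and Snai2. Ranges over all settings were 0.15 to 0.29 for Cdh1, 0.24 to 0.37 for Vim, -0.84 to -0.68 for Snai1, 0.20 to 0.53 for Zeb1 and -0.38 to -0.19 for Twist1. The count of the 10 genes past 1.5-fold higher in tumour cells with no minimum of UMIs, 2 (Cdh2 and Snai2), was 0 by named clusters, 0 without the mammary gland clusters and 1 without cells holding Dcn, Lum or Pdgfra. The count lower, 1 in the report, was 2 in 6 settings: by named clusters, with median ratio scaling, with cells weighted equally, without cells holding Dcn, Lum or Pdgfra, without the top cell of each library (each adding Twist2), and without the mammary gland clusters (adding Cdh2, at 5 UMIs in all). With no minimum, 6098 of 23996 genes were past 1.5-fold higher and 2645 lower in the main tumour cells. Without the mammary gland clusters 5360 of 23573 were higher and 2978 lower. In Col1a1 cells, 1 gene (Zeb1) was past 1.5-fold higher with a Col1a1 minimum of 20 CP10K and over the fibroblast-like cluster. There 1 was lower over that cluster (Cdh1) and with cells weighted equally (Cdh2). In the main Col1a1 cells 3659 of 18354 genes were higher and 3327 lower with no minimum. Prrx1 in tumour cells had a log2 ratio of 0.82 with cells weighted equally, against 0.19 as summed. Median ratio scaling lowered all log2 ratios in tumour cells by 0.09.

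The co-detection shares followed the depth to which cells were thinned. Cdh1 with Vim occurred in 18.2% (control) and 19.8% (knockout) of cells at 2000 UMIs, in 56.8% and 60.4% at 10000 UMIs, and in 80.7% and 83.6% without thinning. Cdh1 with at least 1 of the 7 transcription factor genes was found in 5.66% and 6.52%, 45.9% and 47.7%, and 77.5% and 80.6% under the same settings. Both shares stayed within their intervals without the mammary gland clusters. Results per tumour cluster, lists without the mammary gland clusters, and co-detection with each single gene without those clusters or cells holding Dcn, Lum or Pdgfra were chosen after seeing the data. With no minimum of UMIs, 6098 of 23996 genes were past 1.5-fold higher and 2645 lower in tumour cells, against 3279 and 1204 of 17435 with it. Cdh2 and Snai2 lay at the detection limit in tumour cells, so their ratios there have little depth behind them.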

Other observations

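Thinned to 5000 UMIs, most tumour cells with a UMI of any factor gene had UMIs of only 1 of the 7. In the control library 40.8% of cells had a UMI of none, 42.3% of 1, 14.8% of 2 and 2.06% of 3 or more. In the knockout library the shares were 45.0%, 41.8%, 11.9% and 1.31%. These shares depend on the depth of thinning. In unthinned cells, UMIs of both Zeb2 and Twist1 were present in 2297 of 3824 cells from the control library. The knockout library had 1478 such cells among 2428. Most tumour-gate cells of each library thus held UMIs of at least 2 factor genes when not thinned. Without thinning, pairs of the abundant factors were found together about as often as their single shares within depth bins gave. The ratio of observed to expected cells was 1.03 for Snai1 with Twist1 in both libraries, and 1.02 and 1.03 for Zeb2 with Twist1. Zeb1 with Prrx1 was seen in 58 control cells against 40.7 expected and in 48 knockout cells against 36.6 expected. Without mammary gland clusters and cells holding Dcn, Lum or Pdgfra the counts were 31 against 24.96 and 34 against 24.4. Cells of 1 library are not replicates, so these ratios carry no test.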
